A study of Mus musculus with 6 samples.

Results

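The immediate-early genes and their companions are a set of 10 genes, Egr1, Egr2, Egr3, Fos, Jun, Dusp4, Dusp6, Creb1, Creb5 and Cebpb. They were chosen by symbol, with earlier results of these data known, as were the gene lists below. The deposited table held all 10 among its 770 genes. The tumours were primary oral squamous cell carcinomas induced in mice by 4NQO, a chemical carcinogen that forms DNA adducts. The vehicle group had 3 samples, and the other group had 3 samples from mice given an agonistic anti-CD40 antibody, which activates the CD40 receptor of antigen-presenting cells. All 6 samples therefore carried the same carcinogen treatment, and the groups differed by the antibody. Mouse strain, age, sex, dose and the time between antibody and sampling are not given by the labels. The labels number the samples of each group from 1 to 3 without saying that each came from its own animal, so a p-value here reflects only how these 6 samples vary, and part of that variation may be technical.

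Fos and Jun proteins pair as AP-1, a transcription factor that binds DNA as a dimer, and the Egr proteins are zinc finger transcription factors. Transcription of Fos, Jun and Egr genes starts within minutes of a growth factor, cytokine or stress signal, without new protein synthesis, through the MAP kinases and through Elk1 with serum response factor or Creb1 bound near the gene. Dusp4 and Dusp6 are phosphatases that switch MAP kinases off again and are themselves induced by that signal. C/EBPβ, encoded by Cebpb, acts later in inflammatory responses of macrophages and epithelium. In macrophages and B cells CD40 is a known activator of MAP kinases.

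RNA came from formalin-fixed, paraffin-embedded tumour blocks, and values are log2 normalized counts with n = 3 per group. Each difference is the anti-CD40 mean minus the vehicle mean, and each ± is an SD. Whole counts recovered from the values summed to between 333400 and 578598 per library. A gene was called above background where its count was higher than 2 SD over the average of the 8 negative control rows, a limit of 24.7 to 26.6 counts. Of the 10 genes, 9 lay above it in every library, and Egr2 did so in 2 of 6. Of 7 measured epithelial markers, among them Cdh1 and Epcam, 6 were above background in every library, as were 8 of 10 macrophage markers, 6 of 6 fibroblast markers and 7 of 7 endothelial markers. For a whole tumour, fewer cells that transcribe a gene and less RNA per cell cannot be told apart.

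Fos had the largest difference of the 10 genes, and it was lower in anti-CD40 tumours, together with Jun and Egr1. On the deposited scale, Creb5 and Dusp4 were higher in every anti-CD40 tumour than in any vehicle tumour. All of these differences missed the test's threshold. Limma, a linear model fitted over all 770 genes with Benjamini-Hochberg adjustment, called 0 of the 10 genes and 0 of 770 genes (0%) at an adjusted p of 0.05, and each of the 10 had an adjusted p of 0.974. At an unadjusted p under 0.05 it listed 1 of the 10, Creb5, against 25 of 770 genes (3.25%). Limma-voom on the recovered counts also called 0 genes, and listed 2 of the 10, Creb5 and Fos, and 31 of 770 at an unadjusted p under 0.05. In the mean, 7 of the 10 genes were higher and 3 lower in anti-CD40 tumours, with a median difference of 0.15, while 420 of all 770 genes were higher and 350 lower, with a median of 0.038.

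**Figure D1:**
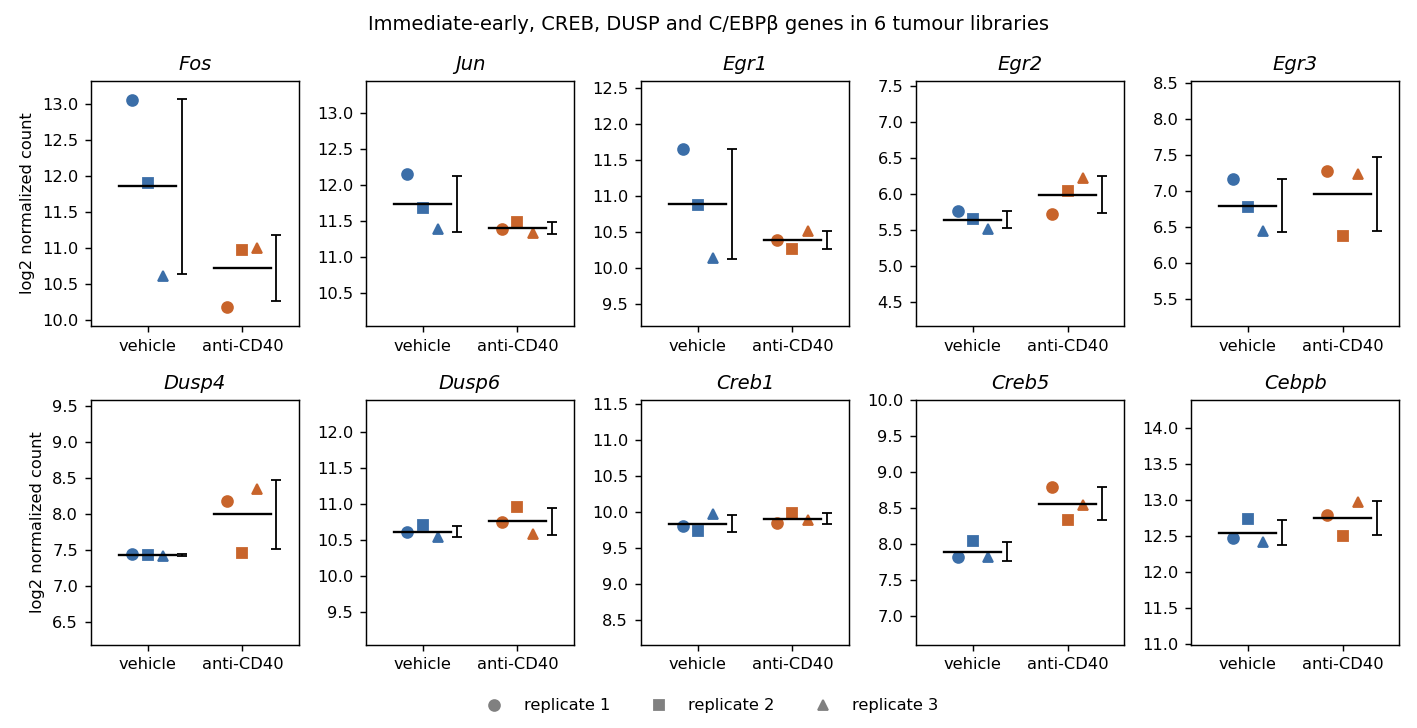
Log2 normalized counts of the 10 genes in the 6 libraries, 1 panel per gene, each with an axis of the same length. Points are libraries (shape gives the replicate number), horizontal lines are group means and bars are 1 SD (n = 3). Fos, Egr1 and Jun had larger SDs in vehicle tumours (1.22, 0.76 and 0.39) than in anti-CD40 tumours (0.46, 0.12 and 0.081). On this scale only Dusp4 and Creb5 have groups that do not overlap.

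Fos encodes the inducible partner in AP-1. Its log2 values were 13.05, 11.91 and 10.62 in vehicle replicates 1, 2 and 3 and 10.19, 10.98 and 11.00 in anti-CD40 replicates 1, 2 and 3. Vehicle replicates 1 and 2 stood above all anti-CD40 libraries, whereas vehicle replicate 3 lay inside their range, so the groups overlapped. The recovered Fos counts were 4630, 1171 and 913 in vehicle and 508, 825 and 728 in anti-CD40 libraries, before scaling by library. Counting error at these counts was 0.021 to 0.064 log2 (SD), far below the spread between libraries. Between the highest and the lowest library the scaled values differed 7.28-fold.

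The group means of Fos were 11.86 ± 1.22 (SD) in vehicle and 10.72 ± 0.46 in anti-CD40 tumours. The difference of −1.14 (SE 0.59), 2.20-fold lower in anti-CD40, had a 95% confidence interval from −2.52 to 0.24 and an exact permutation p of 0.3 (two-sided, where 0.1 is the smallest that 3 against 3 allows). By absolute size it was the 13th of 770 genes, and by unadjusted p (0.091) the 61st. It was −0.54 without vehicle replicate 1 and −1.76 without vehicle replicate 3.

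The 250 bases before the Fos start site are shown because Fos varied most among these genes and cyclic AMP response elements, which Creb1 binds, are known in its promoter. The window lies at chr12:85473640-85473889 on the plus strand of GRCm38.p6, as RefSeq gives it, and capitals mark the 5-base core TGACG of that element.
Fos: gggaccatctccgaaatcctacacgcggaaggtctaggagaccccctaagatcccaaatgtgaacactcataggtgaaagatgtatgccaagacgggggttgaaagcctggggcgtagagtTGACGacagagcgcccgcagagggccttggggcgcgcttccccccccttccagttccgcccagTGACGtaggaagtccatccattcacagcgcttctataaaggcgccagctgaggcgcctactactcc
The core occurs at −129 to −125 and at −66 to −62 from the start, both on the strand shown. It was searched on both strands and is common, being found in 17.8% of the 32851 promoter windows of this length. The window holds neither the full palindrome TGACGTCA, nor an AP-1 site (TGANTCA), nor a CArG box, the element bound by serum response factor. Bases farther upstream were not searched, so the promoter as a whole may hold elements that this window lacks. RefSeq windows were matched for 7 of the 10 genes, all but Egr1, Egr3 and Dusp4.

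Jun, the partner of Fos, had log2 values of 12.15, 11.68 and 11.38 in vehicle and 11.38, 11.49 and 11.33 in anti-CD40 libraries. As for Fos, vehicle replicates 1 and 2 were above every anti-CD40 library on the deposited scale and vehicle replicate 3 was among them. By share of the library total the Jun groups did not overlap, with every vehicle library higher. The nearest were vehicle replicate 2, with 1001 of 357258 counts, and anti-CD40 replicate 3, with 918 of 333400. Their gap was below their counting errors of 0.046 and 0.048 log2. The means were 11.74 ± 0.39 and 11.40 ± 0.081, a difference of −0.34 (SE 0.26, 95% confidence interval −0.94 to 0.27, exact permutation p = 0.2). It was −0.13 without vehicle replicate 1 and −0.52 without vehicle replicate 3. The 3 anti-CD40 libraries lay within 0.16 of each other, against 0.77 in vehicle. No full cyclic AMP response element, TGACG core, AP-1 site or CArG box was found in the 250 bases before the Jun start. The search took exact letters only. This window holds TGACATCA, which differs from the full element TGACGTCA at 1 base, and such variants were not searched.

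Egr1 is the Egr gene most used as a marker of recent MAP kinase activity. Its values were 11.66, 10.88 and 10.14 in vehicle and 10.40, 10.27 and 10.52 in anti-CD40 libraries. On the deposited scale vehicle replicate 1 was the highest and vehicle replicate 3 the lowest of all 6, so the vehicle group enclosed the anti-CD40 group. By share of the library total it did not. Vehicle replicate 3 had 653 Egr1 counts of 488585, a larger share than the 587 of 497475 in anti-CD40 replicate 1. The vehicle libraries spanned 1.52 log2 and the anti-CD40 libraries 0.25. The means were 10.89 ± 0.76 and 10.39 ± 0.12, a difference of −0.50 (SE 0.38, 95% confidence interval −1.39 to 0.40, exact permutation p = 0.4). Without vehicle replicate 1 it was −0.12, and without vehicle replicate 3 it was −0.88.

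The other Egr genes did not follow Egr1. Egr3, which in lymphocytes restrains activation, was 7.17, 6.78 and 6.44 in vehicle and 7.28, 6.37 and 7.23 in anti-CD40 libraries. The highest and the lowest value both belonged to the anti-CD40 group. The difference was 0.16 (SE 0.33, exact permutation p = 0.7), and its sign rested on single libraries, with −0.013 without vehicle replicate 3, 0.0028 without anti-CD40 replicate 1, 0.029 without anti-CD40 replicate 3, 0.35 without vehicle replicate 1 and 0.46 without anti-CD40 replicate 2. Egr3 had 32 to 76 counts per library, with a counting error of 0.16 to 0.24 log2.

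Egr2, a regulator of myelination and of T cell tolerance, gave 5.76, 5.66 and 5.52 in vehicle and 5.72, 6.04 and 6.22 in anti-CD40 libraries. It was above background only in vehicle replicate 1 and anti-CD40 replicate 2, with 14 to 27 counts and a counting error of 0.25 to 0.35 log2. Its difference of 0.35 (SE 0.23, exact permutation p = 0.2) therefore compares values at the background, which the scaling factors multiply unequally. Of the 5 RefSeq windows before Egr2 starts, 4 held a CArG box, an element found in 1.47% of all windows, and 3 of these windows overlap and share the same box.

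The dual-specificity phosphatase genes differed in pattern. Dusp4, a nuclear phosphatase of ERK and JNK kinases, was 7.44, 7.43 and 7.42 in vehicle and 8.18, 7.45 and 8.35 in anti-CD40 libraries. Anti-CD40 replicates 1 and 3 were well above vehicle, whereas replicate 2 exceeded the highest vehicle library by less than its counting error of 0.17 log2. On the deposited scale the groups did not overlap, and the vehicle libraries were nearly identical. Their SD of 0.0094 was the smallest of the 618 genes above background in at least 3 libraries, below the counting error of 0.14 to 0.20 that 51 to 97 counts give. By share of the library total the groups overlapped. Anti-CD40 replicate 2 had 70 Dusp4 counts of 445159, a smaller share than the 97 of 488585 in vehicle replicate 3. Vehicle replicate 2, with 51 of 357258, had a smaller share still. Limma-voom, which scales by library total, gave a Dusp4 difference of 0.51 (SE 0.34).

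Vehicle tumours had a mean Dusp4 value of 7.43, and the anti-CD40 mean, with an SD of 0.48, was higher by 0.57 (SE 0.28, n = 3 per group, 95% confidence interval −0.092 to 1.23, unadjusted p = 0.082). It was 0.84 without anti-CD40 replicate 2 and 0.39 without anti-CD40 replicate 3. The exact permutation p was 0.1, the smallest possible.

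Dusp6, a cytoplasmic phosphatase that is selective for ERK and is often read as a measure of ERK output, stayed close to one level, with 10.61, 10.71 and 10.55 in vehicle and 10.75, 10.96 and 10.59 in anti-CD40 libraries. The groups overlapped, and the 6 libraries spanned 0.40 log2. The difference was 0.14 (SE 0.21), with a 95% confidence interval from −0.36 to 0.64. It was 0.043 without anti-CD40 replicate 2 and 0.23 without anti-CD40 replicate 3.

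**Figure D2:**
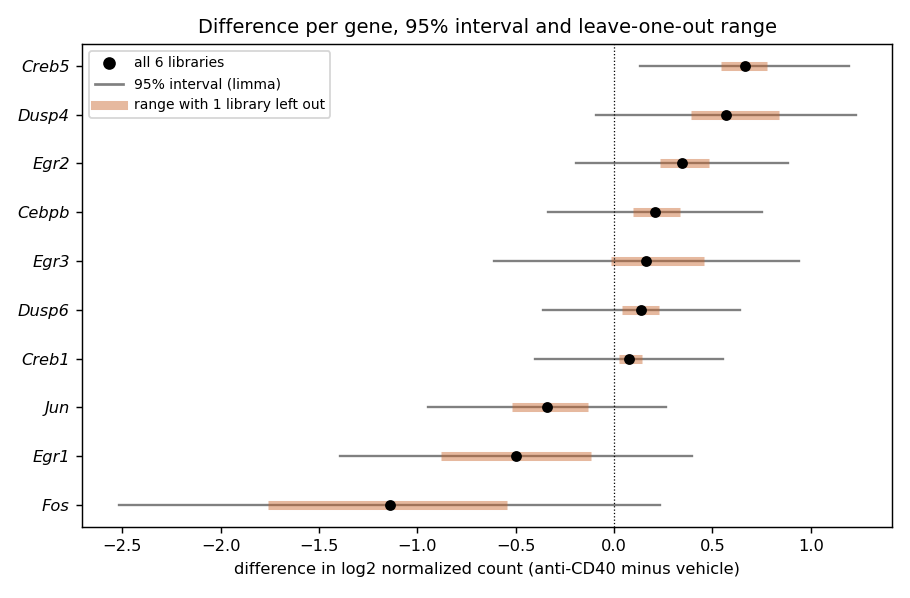
Difference in log2 normalized count, anti-CD40 minus vehicle, for each of the 10 genes (points), with limma's 95% confidence interval (grey lines) and the range of the difference when 1 library is left out (orange bars). Creb5, at 0.66, is the only gene whose interval does not include 0, and this interval is not adjusted for the number of genes; the widest interval belongs to Fos.

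Creb5 encodes a factor of the ATF2 family that binds cyclic AMP response elements. Its values were 7.81, 8.04 and 7.81 in vehicle and 8.79, 8.33 and 8.54 in anti-CD40 libraries. Every anti-CD40 library lay above every vehicle library, with a gap of more than the counting error of 0.10 to 0.16 log2 for a single library. The nearest libraries were anti-CD40 replicate 2 at 8.33 and vehicle replicate 2 at 8.04. Their counting errors were 0.12 and 0.16 log2, and a gap between libraries carries both. The means were 7.89 ± 0.13 and 8.55 ± 0.23, a difference of 0.66 (SE 0.23, 95% confidence interval 0.13 to 1.20), or 1.59-fold. The unadjusted p of 0.021 was the 9th lowest of 770 genes, the adjusted p was 0.974, and the exact permutation p was 0.1. With 1 library left out the difference stayed between 0.54 and 0.78. On the deposited scale, groups that did not overlap were found for 2 of the 10 genes, Creb5 and Dusp4, and for 79 of 770 genes (10.3%). Both were higher in anti-CD40 tumours, as were 52 of 770 genes (6.75%), and 0 of the 10 genes and 27 of 770 (3.51%) separated in the other direction.

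RefSeq gives 2 start sites for Creb5, and both windows are shown because each holds 1 of the elements that this set of factors binds. Capitals mark the cyclic AMP response element TGACGTCA in the first, at chr6:53287053-53287302, and an AP-1 site, TGANTCA, in the second, at chr6:53573124-53573373, both on the plus strand of GRCm38.p6.
Creb5 first start: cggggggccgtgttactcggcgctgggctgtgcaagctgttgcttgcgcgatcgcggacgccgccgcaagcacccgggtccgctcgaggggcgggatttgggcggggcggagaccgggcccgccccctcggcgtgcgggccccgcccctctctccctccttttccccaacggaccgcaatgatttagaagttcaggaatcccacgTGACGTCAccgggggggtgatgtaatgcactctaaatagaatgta
Creb5 second start: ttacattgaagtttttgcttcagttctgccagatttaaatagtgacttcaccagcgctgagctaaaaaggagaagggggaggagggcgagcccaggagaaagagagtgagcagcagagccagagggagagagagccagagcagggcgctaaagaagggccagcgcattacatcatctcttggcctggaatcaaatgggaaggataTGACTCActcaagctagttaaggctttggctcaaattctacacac
The full element lies at −45 to −38 and contains the core TGACG on both strands. The AP-1 site lies at −45 to −39 from the second start. Of all windows, 1.55% hold the full element and 6.75% an AP-1 site. A match describes the letters of the window and does not say that a factor was bound, and the probe counts do not tell the transcripts of the start sites apart.

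Creb1, the cyclic AMP response factor whose activity is set mainly by phosphorylation and not by its transcript level, had the smallest span of the 10 genes on the deposited scale. Its values were 9.81, 9.74 and 9.97 in vehicle and 9.85, 9.99 and 9.90 in anti-CD40 libraries, a span of 0.25 log2 over all 6, and the groups overlapped. The difference was 0.076 (SE 0.20, 95% confidence interval −0.40 to 0.55). It ranged from 0.026 without vehicle replicate 2 to 0.14 without vehicle replicate 3, and after quantile normalization it was −0.024, so no direction is given. The Creb1 window held an EGR site (GCGNGGGCG), as 4.70% of windows do, and no cyclic AMP response element.

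Cebpb was 12.48, 12.74 and 12.42 in vehicle and 12.79, 12.50 and 12.97 in anti-CD40 libraries. On the deposited scale anti-CD40 replicates 1 and 3 were the highest of the 6, as for Dusp4, but anti-CD40 replicate 2 lay below vehicle replicate 2. By share of the library total vehicle replicate 3, with 3184 Cebpb counts of 488585, was above anti-CD40 replicate 1, with 3095 of 497475. The means of 12.55 ± 0.17 and 12.75 ± 0.24 differed by 0.21 (SE 0.23, exact permutation p = 0.2). The difference was 0.098 without anti-CD40 replicate 3 and 0.34 without anti-CD40 replicate 2.

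The spread within groups set Fos apart from the other members. Its pooled within-group SD of 0.92 log2 was the 32nd highest of the 618 genes above background in at least 3 libraries, whose median was 0.36. Egr1 followed with 0.55 (129th) and Egr3 with 0.44 (210th). Jun, at 0.28, lay below the median, and on the deposited scale Dusp6 (0.14, 561st) and Creb1 (0.097, 606th) had the smallest pooled SDs of the 9 members ranked. After quantile normalization Fos remained highest (0.85, 31st), but the order below it changed. Egr3 (0.61, 69th) and Dusp4 (0.52, 111th) then exceeded Egr1 (0.42, 165th), and Cebpb (0.15, 555th) and Jun (0.17, 523rd) were steadier than Creb1 (0.19, 490th) and Dusp6 (0.21, 465th). The SDs of Fos, Egr1 and Jun were larger in the vehicle group. The SD of Egr1 was 0.76 in vehicle, 63rd of 618, and 0.12 in anti-CD40, 520th of 618, and that of Jun was 0.39, 272nd of 618, and 0.081. Dusp4 was the reverse on the deposited scale, with the lowest SD of these 618 genes in vehicle and the 148th highest in anti-CD40. These are descriptions of 3 libraries per group, and a difference in spread was not tested.

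**Figure D3:**
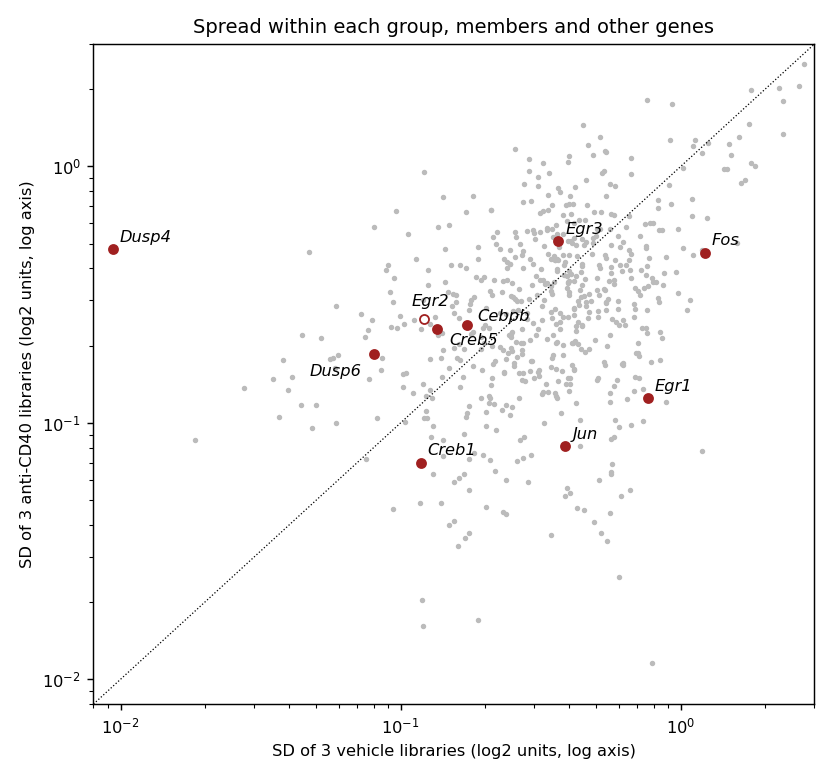
Standard deviation of log2 normalized counts over the 3 vehicle libraries (x axis) and the 3 anti-CD40 libraries (y axis), both on log axes. Grey points are the 618 genes above background in at least 3 libraries, red points are the described genes, the open circle is Egr2, which did not pass that filter, and the dotted line marks equal spread. Fos, Egr1 and Jun lie right of the line and Dusp4 at the far left.

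Across the 6 libraries Fos, Egr1 and Jun took similar courses. Pearson's r was 0.94 for Egr1 with Fos (exact permutation p = 0.015, Spearman's rho 0.83, exact p = 0.058), 0.95 for Fos with Jun (exact permutation p = 0.018, rho 0.66, exact p = 0.18) and 0.94 for Egr1 with Jun (exact permutation p = 0.025, rho 0.49, exact p = 0.36). All 45 pairs of the 10 genes were computed. After Benjamini-Hochberg adjustment over them, the exact permutation p of r was 0.27, 0.27 and 0.28 and that of rho 0.44, 0.79 and 0.84, so none passed. The relation rested on vehicle replicates 1 and 2. Without these, over 4 libraries, r was 0.10 for Egr1 with Fos, 0.21 for Fos with Jun and −0.50 for Egr1 with Jun. With each group centred on its own mean, r over the 6 libraries was 0.92, 0.92 and 0.93 for the same pairs.

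On the deposited scale, from which each r and rho was computed, Dusp4, Creb5 and Cebpb each had their highest values in anti-CD40 replicates 1 and 3. By share of the library total this did not hold for Cebpb. Pearson's r was 0.85 for Dusp4 with Cebpb (exact permutation p = 0.018, adjusted 0.27) and 0.83 for Dusp4 with Creb5 (exact permutation p = 0.038, adjusted 0.34), with rho of 0.83 and 0.89 (exact p = 0.058 and 0.033, both 0.44 adjusted). Without anti-CD40 replicates 1 and 3, r was −0.14 for the first pair and 0.75 for the second. In the libraries that remained, Dusp4 lay between 7.42 and 7.45, a span below its counting error of 0.14 to 0.20 log2. Neither value can therefore show whether the relation holds without anti-CD40 replicates 1 and 3. For Creb5 with Cebpb r was 0.72 (exact permutation p = 0.12, adjusted 0.69, rho 0.89, exact p = 0.033, adjusted 0.44). For each pair, the 2 libraries left out were those farthest from the median of the gene named first. For Creb5 with Cebpb these were vehicle replicate 3 and anti-CD40 replicate 1, and r was 0.64 with anti-CD40 replicate 3 kept. With each group centred on its own mean, r was 0.79 for Dusp4 with Cebpb, 0.62 for Dusp4 with Creb5 and 0.68 for Creb5 with Cebpb. Egr3 was also highest in anti-CD40 replicates 1 and 3, at 7.28 and 7.23, with 7.17 in vehicle replicate 1. The r of Egr3 with Dusp4 was 0.70 (exact permutation p = 0.11, adjusted 0.69, rho 0.60, exact p = 0.24, adjusted 0.79). It was 0.70 without vehicle replicate 3 and anti-CD40 replicate 2, which keeps anti-CD40 replicates 1 and 3. For Creb5 with Cebpb and for Egr3 with Dusp4, r without both anti-CD40 replicates 1 and 3 was not computed.

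**Figure D4:**
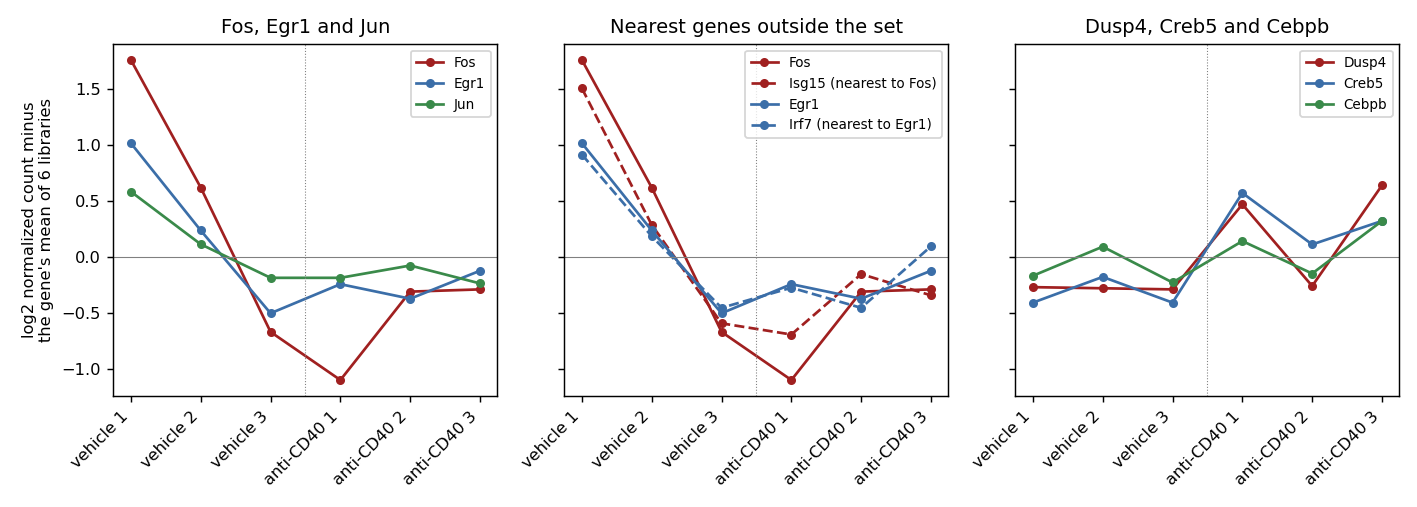
Log2 normalized count minus the gene's own mean over the 6 libraries, for Fos, Egr1 and Jun (left), for Fos and Egr1 with the gene of most similar course outside the set (middle) and for Dusp4, Creb5 and Cebpb (right). Lines join libraries for legibility and imply no order. The left and middle groups are highest in vehicle replicate 1, and the right group in anti-CD40 replicates 1 and 3.

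Outside the set, the genes whose course was most like that of Egr1 were Irf7, an interferon regulatory transcription factor, Xaf1, which binds the apoptosis inhibitor XIAP, and Ifit1, an RNA-binding antiviral protein. Their root mean square distances from Egr1 over the 6 libraries, after each gene was centred on its own mean, were 0.11, 0.11 and 0.14 log2, against a median of 0.54 for the 609 genes compared. Irf7 was 9.28, 8.55 and 7.91 in vehicle and 8.09, 7.91 and 8.46 in anti-CD40 libraries, with its maximum in vehicle replicate 1 as for Egr1. Nearest to Fos were Isg15, a ubiquitin-like modifier (0.25), Gbp5, a guanylate-binding protein (0.35), and Oas2, an oligoadenylate synthetase (0.37), against a median of 0.93. Isg15 was 10.36, 9.14 and 8.26 in vehicle and 8.16, 8.70 and 8.51 in anti-CD40 libraries. The order depended on vehicle replicate 1, where all of these genes were highest. Without it, Irf7, Xaf1 and Ifit1 were 5th, 11th and 16th nearest to Egr1, behind Ccl17 at 0.055, and Isg15, Gbp5 and Oas2 were 4th, 33rd and 59th nearest to Fos, behind Slamf7 at 0.10.

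The kinases and factors upstream of these genes were measured in a list of 18 MAP kinase cascade genes and nuclear targets. Of these, 13 were higher and 5 lower in the mean in anti-CD40 tumours, 0 passed the adjusted threshold, 0 had an unadjusted p under 0.05, and the median difference was 0.076. Elk1, the factor that joins ERK to Fos and Egr1 transcription, was 6.28, 6.13 and 6.63 in vehicle and 6.69, 6.84 and 7.03 in anti-CD40 libraries. On the deposited scale the Elk1 groups did not overlap, with a difference of 0.50 (SE 0.24), and 5 of 6 libraries were above background. Mapkapk2, a kinase activated by p38, was 11.53, 11.69 and 11.48 in vehicle and 12.20, 11.71 and 11.86 in anti-CD40 libraries. On that scale the groups did not overlap, but anti-CD40 replicate 2 was close to vehicle replicate 2. Map2k4, which activates JNK and p38, differed by 0.38 (SE 0.26) with overlapping groups. Groups without overlap on the deposited scale were thus found for 3 of the 18, against 10.3% of all genes. The third of these, named after its values were seen, was the upstream kinase gene Map3k1, at 8.93, 8.83 and 8.92 in vehicle and 8.47, 8.82 and 8.57 in anti-CD40 libraries. By share of the library total the groups of all 3 overlapped. Vehicle replicate 3 then lay above anti-CD40 replicate 1 for Elk1 and above anti-CD40 replicate 2 for Mapkapk2. For Map3k1, vehicle replicate 2 then lay below anti-CD40 replicate 2.

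Other early response genes were more often lower than higher in the mean. Of 18 measured, 13 were lower and 5 higher, with a median difference of −0.14, and 0 passed the adjusted threshold or an unadjusted p under 0.05. The neutrophil chemokine gene Cxcl1 was 8.16, 8.36 and 8.67 in vehicle and 6.48, 8.61 and 6.72 in anti-CD40 libraries. It was low in anti-CD40 replicates 1 and 3, the libraries in which Dusp4 and Cebpb were high, and the groups overlapped (difference −1.13, SE 0.54). Tnfaip3, an inhibitor of NF-κB signalling, was lowest in the same libraries, at 7.92 and 7.43, beside 8.49 in anti-CD40 replicate 2 and 8.36 to 8.86 in vehicle. Socs1, an inhibitor of cytokine receptor signalling, was 8.15 and 8.21 there, beside 8.72 and 8.55 to 8.95. On the deposited scale the chemokine gene Ccl4, named after its values were seen, was the 1 gene of these 18 without overlap, against 10.3% of all genes. It was lower in anti-CD40 tumours (−0.47, SE 0.24). It was 5.94, 6.38 and 5.90 in vehicle and 5.36, 5.67 and 5.78 in anti-CD40 libraries. Only vehicle replicates 1 and 3 were above background, so this separation lies among values at the background.

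Only 6 further factors of the C/EBP, AP-1, ATF, CREB and NFAT families were measured from the list, namely Batf, Maf and Nfatc1 to Nfatc4. All 6 were higher in the mean, with a median difference of 0.21, 0 passed the adjusted threshold and in 0 did the groups separate on the deposited scale. The members of lowest unadjusted p were Nfatc4 (difference 0.38, SE 0.25), Maf (0.20, SE 0.23) and Batf (0.25, SE 0.31). Of 10 growth factor and receptor genes that feed ERK, 8 were higher and 2 lower, with a median of 0.18, 0 past the adjusted threshold and 1, Flt3, at an unadjusted p under 0.05. Groups without overlap on the deposited scale were found for 1 of the 10, again against 10.3% of all genes. The genes of lowest unadjusted p were the insulin-like growth factor receptor gene Igf1r, whose groups did not overlap on that scale (0.36, SE 0.21), Csf1, the macrophage growth factor gene (0.41, SE 0.29), and Flt3, a receptor of dendritic cell precursors (−0.75, SE 0.29, above background in 4 of 6 libraries). By share of the library total the Igf1r groups overlapped, with vehicle replicate 3 above anti-CD40 replicate 2. Every gene named from these lists had an adjusted p of 0.974 with limma. Of 20 housekeeping genes, 11 were higher and 9 lower, with a median of 0.0097. In 2 of them, Nubp1 and Polr1b, named after their values were seen, the groups did not overlap on the deposited scale.

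**Figure D5:**
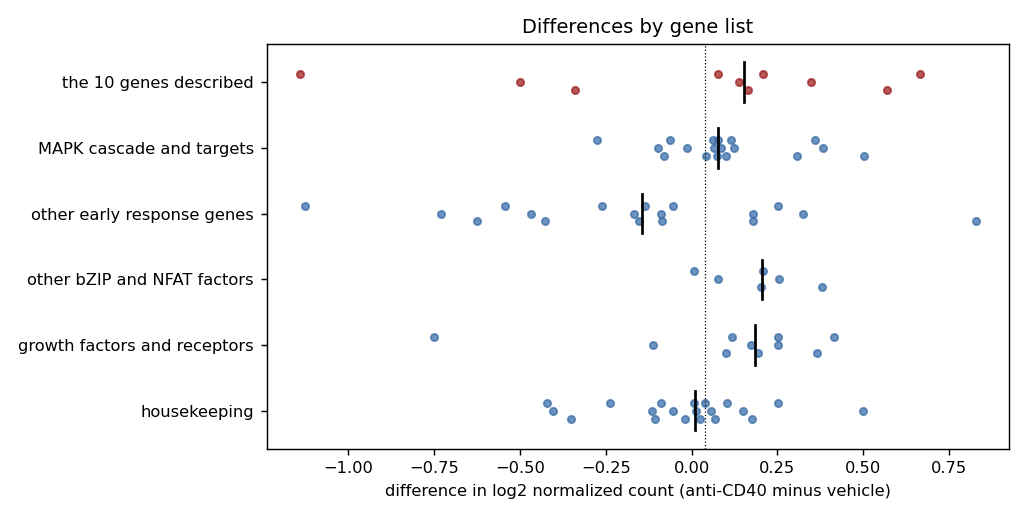
Difference in log2 normalized count, anti-CD40 minus vehicle, for each measured gene of the described set (red) and of 5 related lists (blue). Black bars are list medians and the dotted line is the median of all 770 genes, 0.038. The described genes reach from −1.14 for Fos to 0.66 for Creb5, with 18 genes in each of the MAP kinase and early response lists.

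Marker genes of the tissue's cell types were set beside these patterns. The mean of 7 squamous epithelial markers was 10.46, 10.54 and 10.48 in vehicle and 10.24, 10.44 and 10.28 in anti-CD40 libraries. It was lowest in anti-CD40 replicates 1 and 3, where Dusp4 and Cebpb were highest on the deposited scale. The mean of 7 endothelial markers was 10.21, 9.88 and 9.66 in vehicle and 10.55, 9.90 and 10.26 in anti-CD40 libraries, highest in the same replicates 1 and 3. The mean of 10 macrophage markers was 8.85, 8.91 and 8.12 in vehicle and 8.91, 9.06 and 8.88 in anti-CD40 libraries. Fibroblast markers (6 genes) ranged from 10.60 to 11.31 in vehicle and from 11.15 to 11.35 in anti-CD40 libraries.

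The mean of each of these 4 marker lists was higher in some other library than in vehicle replicate 1, where Fos, Egr1 and Jun peaked. The mean of 9 T cell markers was highest there, at 6.90, though close to 6.79 in vehicle replicate 2 and 6.86 in anti-CD40 replicate 2, and 5 of the 9 were above background in every library and Cd2 in none. The mean of 4 nerve and salivary gland genes, Ncam1, S100b, Dmbt1 and Ccl28, was lowest in vehicle replicate 1 (7.43) and highest in anti-CD40 replicate 1 (10.84), the libraries with the highest and the lowest Fos. In the other libraries it was 10.24 in vehicle 2, 8.94 in vehicle 3, 9.44 in anti-CD40 2 and 9.07 in anti-CD40 3. Neutrophil markers (8 genes, 3 above background in every library) ranged from 6.94 to 9.66 in vehicle and from 7.30 to 9.57 in anti-CD40 libraries. Of 7 B cell markers, 0 were above background in every library and Cd79a and Cr2 in none, with means of 5.10 to 6.97 and 5.23 to 6.34. The part of cell composition in the differences of the 10 genes was not tested.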

How the data were processed

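The values are log2 normalized counts in a single table deposited by the authors, per the file headers and its name, with 770 genes, 6 positive and 8 negative control rows. Platform, software and normalization are not stated by the labels. Each value is the log2 of a library factor (1.72 to 3.28) times a whole count plus 4.55. By this rule all 4704 values gave whole counts (tolerance 0.05). The offset understates differences of genes with few counts. The groups were compared with limma 3.58.1 (R 4.3.3, lmFit and eBayes, 4 residual and 3.37 prior degrees of freedom), checked on simulated data. Exact permutation tests were two-sided. Python 3.11.15 was used for the rest. Promoter windows (250 bases, motifs searched on both strands) came from RefSeq, GRCm38.p6. The table itself names no build, and windows were matched by symbol. The 10 genes and all lists were chosen with earlier results of these data known. Named genes are the 10, the 3 nearest in course to Egr1 and Fos, and the 3 of lowest p per list above background in at least 3 libraries. Alternatives were quantile normalization, housekeeping centring, a background filter, eBayes with trend, a replicate block, limma-voom on recovered counts scaled by library total, and leaving out each library.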

Additional observations from a re-analysis of the deposited data

How the results depend on the processing

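Under each of the 12 alternatives limma called 0 of the 10 genes and 0 genes in all, with 13 to 52 genes at an unadjusted p under 0.05. Adjusted p-values of the 10 genes lay between 0.61 and 0.998. Creb1 turned sign after quantile normalization (−0.024) and Egr3 when vehicle 3 was left out (range with 1 library left out −0.013 to 0.46), and the other differences kept their sign under every alternative that gave a value. Egr2 fell out under the background filter. Only Fos was in the top 10% by within-group SD, also among all 770 genes and after quantile normalization, which changed the order of the other members. With the replicate number as a block, limma called 0 of the 10 genes and 0 in all (32 at an unadjusted p under 0.05). The deviations of same-numbered samples correlated at −0.43, 0.069 and 0.28, within the range of −0.56 to 0.48 for samples of unlike number. These values cannot decide whether samples were paired. The labels name no pairs, and the numbers were not taken as pairs. The order of genes by likeness to Fos and Egr1 without vehicle 1 was an alternative chosen after seeing the data. Counting error was 0.25 to 0.35 log2 for Egr2, 0.16 to 0.24 for Egr3 and 0.13 to 0.20 for Dusp4, the 3 genes with the fewest counts.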
